A study of Mus musculus with 25 samples.

Results

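The genes described here are 9 imprinted growth genes (H19, Igf2, Dlk1, Meg3, Peg3, Mest, Plagl1, Cdkn1c and Grb10), read by symbol from a table of 55487 mouse genes. All 9 had a row, and all 9 were among the 19155 genes that passed the filter on low counts. They were chosen by their measured expression in the 4 groups of genotype and activity, and which values weighed is not recorded. The comparisons of genotype and activity below are therefore a description, with no p-value printed for a member. Calls in these comparisons are counted beside the share of all genes, and nothing is read from them. The 25 RNA-seq libraries were made from Achilles tendon, all at 3 months of age. The groups were AMPKcKO wheel runners (cKO running, 3 females and 3 males), wildtype wheel runners (WT running, 3 females and 3 males), AMPKcKO mice with cage activity (cKO cage, 3 females and 3 males) and wildtype mice with cage activity (WT cage, 4 females and 3 males). The study's title concerns loss of AMPKα1, the product of Prkaa1 and a catalytic part of AMPK, a kinase that senses energy. The Cre driver, the deleted exons and the strain are not given in the sources used here. The columns of cKO cage male 3 and WT cage female 4 carry another prefix (SNEL) than those of the remaining libraries (MK). What the prefixes stand for is not stated. Both are cage libraries, so that prefix lies wholly on the cage side of each comparison of running.

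Imprinted genes are transcribed mainly from the copy inherited from a single parent. Many of them act on growth before birth, the paternally expressed ones often promoting it and the maternally expressed ones often restraining it, and their levels commonly fall in the tissues of the young animal after birth. Igf2 (insulin-like growth factor 2), Dlk1 (a membrane protein of the Notch ligand type), Peg3 (a zinc finger protein), Mest (a hydrolase) and Plagl1 (a zinc finger transcription factor) are paternally expressed. H19 and Meg3 (long non-coding RNAs), Cdkn1c (the cell cycle inhibitor p57) and Grb10 (an adaptor that dampens insulin and IGF1 receptor signalling) are maternally expressed in most mouse tissues. These counts do not separate the parental copies.

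In the GRCm38 annotation, H19 lies at chr7:142575529-142578143 on the minus strand, and Igf2 on the same strand at chr7:142650766-142666816, 72623 bases away. Cdkn1c lies further along that chromosome at chr7:143458339-143461050, and Peg3 at chr7:6703892-6730431. Dlk1 (chr12:109452823-109463336) and Meg3 (chr12:109541001-109571726) are neighbours on the plus strand, 77665 bases apart. Mest is at chr6:30723547-30748465, Plagl1 at chr10:13060504-13131694 and Grb10 at chr11:11930508-12038683. The strand setting of the libraries is not stated, so reads of overlapping genes cannot be told apart. This touches Igf2, which Gm49394 covers nearly whole on the same strand and Igf2os overlaps on the other, Mest with Copg2, Meg3 with Gm26906, and Cdkn1c with Gm44732.

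H19 is also the host of a microRNA, and its mature arms are shown because they are the small RNA product of the most abundant member. The capitals mark the seed, bases 2 to 8, in the RefSeq sequences for GRCm38.p6.
mmu-miR-675-5p: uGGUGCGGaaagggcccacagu
mmu-miR-675-3p: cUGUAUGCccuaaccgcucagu
The entry for the hairpin, Mir675, had 0 counts in all 25 libraries, which measure longer RNA.

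RefSeq promoter windows of GRCm38.p6, from 250 bases before to 50 after a transcript start, were matched for 7 of the 9 genes. A single window each is shown for Meg3, Peg3 and Mest, the members with the most positive fold changes between cKO and WT runners, and for Grb10, whose level was lower in runners. Both strands were searched for 4 motifs, namely GGGGCCCC (the consensus of PLAGL1, itself a member), GGGCGG (the GC box), TATAAA (the TATA box) and TGACGTCA (the cyclic AMP response element), and capitals mark every match. The motifs were chosen after the windows had been read.
Meg3 chr12:109540746-109541045, plus strand: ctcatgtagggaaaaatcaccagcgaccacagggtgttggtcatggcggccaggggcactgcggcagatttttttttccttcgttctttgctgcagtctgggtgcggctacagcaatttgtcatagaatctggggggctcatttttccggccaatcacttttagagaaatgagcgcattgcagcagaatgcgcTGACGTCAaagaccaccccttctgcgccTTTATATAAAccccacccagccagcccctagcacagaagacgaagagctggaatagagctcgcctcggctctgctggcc
Peg3 chr7:6730370-6730669, minus strand: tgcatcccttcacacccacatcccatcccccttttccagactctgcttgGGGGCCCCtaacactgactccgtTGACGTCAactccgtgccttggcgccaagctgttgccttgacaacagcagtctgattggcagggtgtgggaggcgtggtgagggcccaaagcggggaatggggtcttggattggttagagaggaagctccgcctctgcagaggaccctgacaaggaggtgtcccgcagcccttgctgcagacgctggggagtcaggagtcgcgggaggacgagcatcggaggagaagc
Mest chr6:30737800-30738099, plus strand: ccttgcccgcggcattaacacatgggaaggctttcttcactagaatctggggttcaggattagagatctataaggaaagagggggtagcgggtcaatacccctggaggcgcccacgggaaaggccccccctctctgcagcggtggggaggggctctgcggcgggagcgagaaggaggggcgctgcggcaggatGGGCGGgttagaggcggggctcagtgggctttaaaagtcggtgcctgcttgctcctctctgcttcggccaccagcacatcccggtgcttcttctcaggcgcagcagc
Grb10 chr11:12037371-12037670, minus strand: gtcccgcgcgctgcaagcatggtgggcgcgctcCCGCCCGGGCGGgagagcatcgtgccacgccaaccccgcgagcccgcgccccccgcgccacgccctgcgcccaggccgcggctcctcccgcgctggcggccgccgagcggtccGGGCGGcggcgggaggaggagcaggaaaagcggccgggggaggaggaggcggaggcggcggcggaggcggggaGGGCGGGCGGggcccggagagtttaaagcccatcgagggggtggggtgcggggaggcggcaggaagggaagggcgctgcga
The Meg3 window held TGACGTCA 57 bases before the start, and the Peg3 window held it 178 bases before. Of 32851 mouse promoter windows of that length, 1.79% held this motif. The Peg3 window also held GGGGCCCC 201 bases before the start, a motif in 1.08% of windows. The Meg3 capitals next to the start hold 2 overlapping matches of TATAAA on opposite strands, a motif in 13.6% of windows. The Mest window shown had 1 GGGCGG match and the Grb10 window shown 5, some of them overlapping, against 35.7% of windows with at least 1. Of the 2 windows of Meg3 and the 2 of Grb10, 1 each held no match of any of the motifs and is not shown. Each of the 3 Mest windows held 1 GGGCGG match, but those starting at 30737800 and 30737803 overlap and share the same site. A match of letters is a description and not evidence of binding.

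The libraries held 13193228 to 45724243 counts, with a median of 24538109. The tenocyte genes Scx, Mkx and Tnmd had medians of 33.2, 21.8 and 43.5 FPKM (a level per transcript length), and Col1a1 a median of 1116 FPKM. As a share of counts, a list of 12 tenocyte genes that includes these took 0.493% to 2.76%. A list of 20 genes of skeletal muscle fibres took 3.69% to 19.2%, more than the tenocyte list in every library. The libraries are thus a mix of tissues, and the relations of the muscle genes with the members are given below. On the scale of CPM (counts over the TMM-scaled library total), Prkaa1 averaged 18.6 ± 2.32 CPM in cKO runners against 23.1 ± 6.05 CPM in WT runners, and 17.5 ± 2.38 CPM in cKO cage mice against 23.0 ± 5.94 CPM in WT cage mice (SD). The mean log2 fold change of Prkaa1 over both activities was -0.36 ± 0.12, with an adjusted p of 0.982 in edgeR's quasi-likelihood test. Cre transcripts were counted in 11 of the 12 libraries labelled cKO and in none of the 13 labelled WT. The library labelled cKO cage female 3 had 0 Cre counts. The eGFP entry had 2523 to 5122 counts in the 6 cKO runners and 3292 and 4857 counts in cKO cage female 1 and male 1, against 0 to 64 in the other 4 cKO cage libraries. In WT mice it had 2731 counts in WT running male 2 and 0 to 1 in the other 12 libraries. High eGFP counts therefore went largely with running in cKO mice and with genotype among runners. In those comparisons, whatever goes with eGFP cannot be fully told apart from running or genotype. On the first principal component (16.6% of the variance), cKO running male 2, WT cage female 1 and WT running male 3 were highest, at 88.9, 72.0 and 66.9. The lowest was cKO cage male 2, at -60.85. On the second (11.8%), WT running female 2 and WT running male 3 stood apart from the other libraries. Fits without the pair that stood apart leave out this pair alone, and not the other libraries at the ends of the first component.

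The members covered a wide span of abundance per transcript length. H19 had a median of 221 FPKM over the 25 libraries (range 60.5 to 527), which ranked 287 among the tested genes. Grb10 followed with a median of 24.8 FPKM (15.2 to 34.7), then Peg3 with 18.8 FPKM (10.2 to 45.95), Meg3 with 17.3 FPKM (6.18 to 66.5) and Cdkn1c with 17.2 FPKM (10.98 to 32.3). Igf2 had a median of 13.6 FPKM (4.85 to 31.9), Plagl1 7.37 FPKM (2.3 to 18.6), Mest 4.13 FPKM (1.07 to 13.6) and Dlk1 2.82 FPKM (0.34 to 8.38). H19 exceeded Grb10 in 25 of 25 libraries, and this was the only step in the order at which the ranges of neighbours did not overlap. Meg3 and Cdkn1c, next to each other in the order, were not separable, with Meg3 higher in 11 of 25 libraries.

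H19, Dlk1 and Mest varied most between libraries. The SD of log2 CPM over the 25 libraries was 0.79 for H19, larger than in 76.4% of tested genes, 0.77 for Dlk1 and 0.75 for Mest. Without cKO running male 2 it was 0.54 for H19, below Dlk1 at 0.77 and Mest at 0.70, so the place of H19 in this order rests on 1 library. Dlk1 rested on 14 to 212 counts per library, against 2472 to 33890 for H19. Cdkn1c was the steadiest, with an SD of 0.24, larger than in 17.2% of tested genes.

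H19 ranged most widely among the runners. It had 57.2 to 472 CPM in cKO runners (median 318), 286 to 1035 CPM in WT runners (median 585), 370.1 to 668 CPM in cKO cage mice (median 436) and 259 to 567.8 CPM in WT cage mice (median 456). The 3 male cKO runners, at 228, 57.2 and 259 CPM, lay below every WT runner, and 3 WT runners lay above every cKO runner, so the groups overlapped in part. The cKO against WT log2 fold change was -1.16 ± 0.34 in runners (± SE, here and below) and 0.11 ± 0.32 at cage activity. Running against cage gave -0.73 ± 0.34 in cKO mice and 0.55 ± 0.32 in WT mice, so the sign of the difference turned with genotype, and the genotype-by-running term was -1.28 ± 0.47. Without cKO running male 2, the lowest library, the difference between cKO and WT runners was -0.93 and running against cage in cKO mice was -0.48. Running against cage in WT mice was 0.32 without WT running male 1, and the cage difference was -0.06 without cKO cage male 2, so its sign turned. In limma-voom, which gives libraries weights, the difference in runners was -0.82, running in WT mice was 0.21 and the interaction was -0.76.

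Markers of muscle fibres moved with H19. The 20 genes of that list, all detected, took 8.40% ± 2.96 of counts in cKO runners, 13.9% ± 3.95 in WT runners, 12.5% ± 4.50 in cKO cage mice and 13.1% ± 4.73 in WT cage mice (SD). With the mean level of this list as a covariate, the H19 difference between cKO and WT runners was -0.84 in place of -1.16, and running against cage was -0.31 in cKO mice and 0.59 in WT mice. In bulk tendon, fewer cells of a type and less RNA per cell cannot be told apart.

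Igf2, which shares its domain with H19, had the same order of groups in runners. It had 24.8 to 36.01 CPM in cKO runners (median 27.6), 31.1 to 60.3 CPM in WT runners (median 39.7), 23.3 to 50.2 CPM in cKO cage mice (median 32.2) and 26.9 to 42.6 CPM in WT cage mice (median 31.3). Of the 6 cKO runners, 4 lay below every WT runner. The cKO against WT log2 fold change was -0.53 ± 0.17 in runners and 0.04 ± 0.16 at cage activity, and the genotype-by-running term was -0.57 ± 0.23. WT running male 1, at 60.3 CPM, carried part of this, since the difference in runners was -0.35 without it. By FPKM that library was the lowest WT runner, at 13.6 FPKM. WT running male 3, the lowest WT runner by CPM, was the highest by FPKM, at 31.9 FPKM. The group medians were 12.3 FPKM in cKO runners and 19.9 FPKM in WT runners. The cage difference ranged from -0.07 to 0.11 as each library was left out.

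Meg3 showed the opposite order to H19 in runners. It had 20.1 to 44.3 CPM in cKO runners (median 26.4), 12.7 to 20.9 CPM in WT runners (median 19.9), 18.6 to 25.01 CPM in cKO cage mice (median 22.1) and 19.5 to 30.7 CPM in WT cage mice (median 24.9). Of the 6 cKO runners, 5 lay above every WT runner, and cKO running male 2 was the highest of all 25 libraries. The cKO against WT log2 fold change was 0.61 ± 0.15 in runners and -0.22 ± 0.14 at cage activity. Running against cage gave 0.35 ± 0.15 in cKO mice and -0.48 ± 0.14 in WT mice, and the genotype-by-running term was 0.83 ± 0.21. Without cKO running male 2 the difference in runners was 0.46, without the WT running pair that stood apart it was 0.51, and with the muscle covariate it was 0.56. It was 0.39 in limma-voom and, on the FPKM table, 1.09 in limma on log2(FPKM + 1). Running against cage in cKO mice was 0.21 without cKO running male 2 and 0.84 on log2(FPKM + 1). Dlk1, the protein-coding neighbour of Meg3, had 0.98 to 4.33 CPM in cKO runners and 1.25 to 4.99 CPM in WT runners, a log2 fold change of -0.23 ± 0.41. It was -0.04 without WT running male 2, -0.41 without cKO running male 2 and -0.55 with the muscle covariate.

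Mest and Peg3, both paternally expressed, followed Meg3 in sign. Mest had 3.91 to 22.4 CPM in cKO runners (median 8.20), 2.23 to 8.58 CPM in WT runners (median 6.83), 5.91 to 11.5 CPM in cKO cage mice (median 9.33) and 4.41 to 19.03 CPM in WT cage mice (median 9.34). Only cKO running males 1 and 2, at 19.1 and 22.4 CPM, lay above every WT runner. The cKO against WT log2 fold change was 0.92 ± 0.35 in runners, where it was 0.70 without male 2, 0.66 with the muscle covariate and 0.57 in limma-voom, and -0.13 ± 0.34 at cage activity. The cage difference turned to 0.24 without WT cage female 1 and was -0.30 without cKO cage female 3, the library with no Cre count. Running against cage in WT mice gave -0.83 ± 0.35, and -0.48 without WT cage female 1, the highest cage library. The level of Mest had r = 0.53 with the adipocyte marker list over the 25 libraries, and 0.60 in the residuals after group and sex.

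Peg3 had 97.0 to 231 CPM in cKO runners (median 130.1), 77.6 to 152 CPM in WT runners (median 119), 118 to 174 CPM in cKO cage mice (median 147) and 128 to 265 CPM in WT cage mice (median 172). The same cKO running males 1 and 2 lay above every WT runner. The cKO against WT log2 fold change was 0.33 ± 0.22 in runners, where it was 0.15 without male 2, 0.20 with the muscle covariate and 0.10 in limma-voom. At cage activity it was -0.30 ± 0.21, where it was -0.20 without WT cage female 2 and -0.13 in limma-voom. Running against cage gave 0.04 ± 0.22 in cKO mice, where the sign turned to -0.13 without cKO running male 2, and -0.60 ± 0.21 in WT mice. The level of Peg3 had r = -0.47 with the satellite cell and myoblast list, and -0.61 in the residuals.

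Grb10 was lower in runners of both genotypes. It had 57.1 to 99.4 CPM in cKO runners (median 68.9), 48.7 to 88.4 CPM in WT runners (median 77.3), 87.4 to 109 CPM in cKO cage mice (median 101) and 74.7 to 123 CPM in WT cage mice (median 102). All 6 WT runners lay below 6 of the 7 WT cage mice, the exception being WT cage female 1. Running against cage gave a log2 fold change of -0.46 ± 0.13 in cKO mice and -0.42 ± 0.13 in WT mice, a mean of -0.44 ± 0.09. The cKO against WT difference was -0.01 ± 0.13 in runners and 0.02 ± 0.13 at cage activity, and both turned sign as single libraries were left out, from -0.09 to 0.04 in runners and from -0.06 to 0.07 at cage activity. The running mean ranged from -0.48 to -0.41 as each of the 25 libraries was left out, and it was -0.34 with the muscle covariate. It was -0.19 in limma on log2(FPKM + 1), where the call described below was lost, as it was at -0.45 with a term for libraries carrying eGFP.

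Plagl1 and Cdkn1c showed the smallest differences between cKO and WT runners beside Grb10. Plagl1 averaged 16.6 ± 6.39 CPM in cKO runners, 16.1 ± 4.34 CPM in WT runners, 16.6 ± 6.27 CPM in cKO cage mice and 16.9 ± 4.23 CPM in WT cage mice (SD). Between cKO and WT its log2 fold change was 0.07 ± 0.25 in runners, -0.13 without cKO running male 2, 0.29 without the WT running pair that stood apart and -0.23 with the muscle covariate. Cdkn1c averaged 15.1 ± 2.62 CPM in cKO runners, 16.7 ± 3.11 CPM in WT runners, 15.3 ± 2.63 CPM in cKO cage mice and 16.0 ± 2.46 CPM in WT cage mice (SD), and its log2 fold change was -0.15 ± 0.14 in runners. It was -0.07 without WT running male 2 and -0.25 without cKO running female 2.

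**Figure D1:**
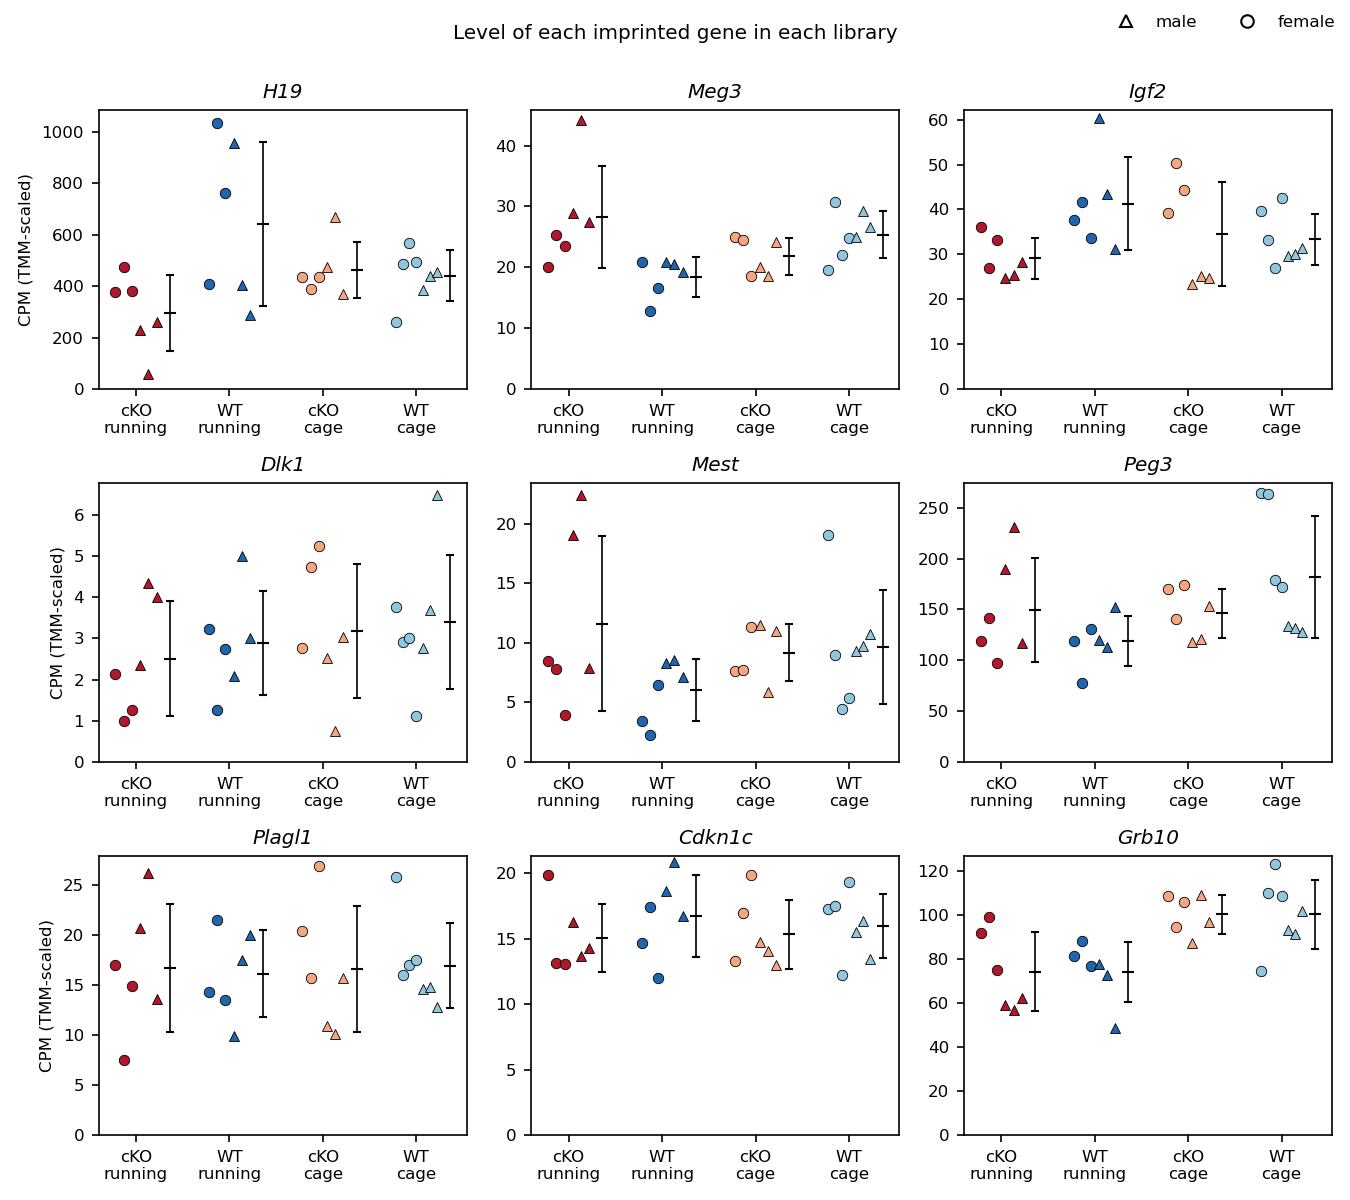
TMM-scaled CPM (linear axes from 0) of the 9 members in every library, with males as triangles and females as circles; the bars give mean and SD of the 6 libraries in a group, or 7 for WT cage. H19 is lowest in the male cKO runners, Meg3 is highest in cKO running male 2, and Grb10 is lower in both groups of runners than in most cage mice.

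Counted over all members, few calls were made. In edgeR, 0 of 9 members were called between cKO and WT in runners, beside 0% of all tested genes, and the CPM of the groups overlapped for every member, against 0.376% of genes whose groups did not overlap. At an unadjusted p under 0.05, 4 of 9 members passed in runners against 11.2% of all genes, and at cage activity 0 of 9 against 1.08%, where 0% of genes were called and 0.0470% did not overlap. As the mean of both activities, 0 of 9 were called, with 0% of all genes called and 2 of 9 at an unadjusted p under 0.05 against 3.72%. The genotype-by-running term called 0 of 9 members and 0% of genes, with 5 of 9 at an unadjusted p under 0.05 against 7.11%. DESeq2 and limma-voom likewise called 0 of 9 in these comparisons.

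Running against cage called 0 of 9 members in cKO mice, where 0.0574% of genes were called, and 0 of 9 in WT mice, where 0.125% were. At an unadjusted p under 0.05, 3 of 9 passed in cKO mice against 13.4% of genes and 5 of 9 in WT mice against 9.62%. The CPM of runners and cage mice overlapped for every member in both genotypes, while 0.887% of genes in cKO mice and 0.543% in WT mice did not overlap. DESeq2 called Grb10 in cKO mice, and limma-voom called it in both genotypes. As the mean of both genotypes, Grb10 alone was called, 1 of 9 members, where 1.31% of all genes were called and 0.762% were called lower. Since such differences may have chosen the members, nothing is read from these counts. The comparisons that share a group also share its libraries.

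**Figure D2:**
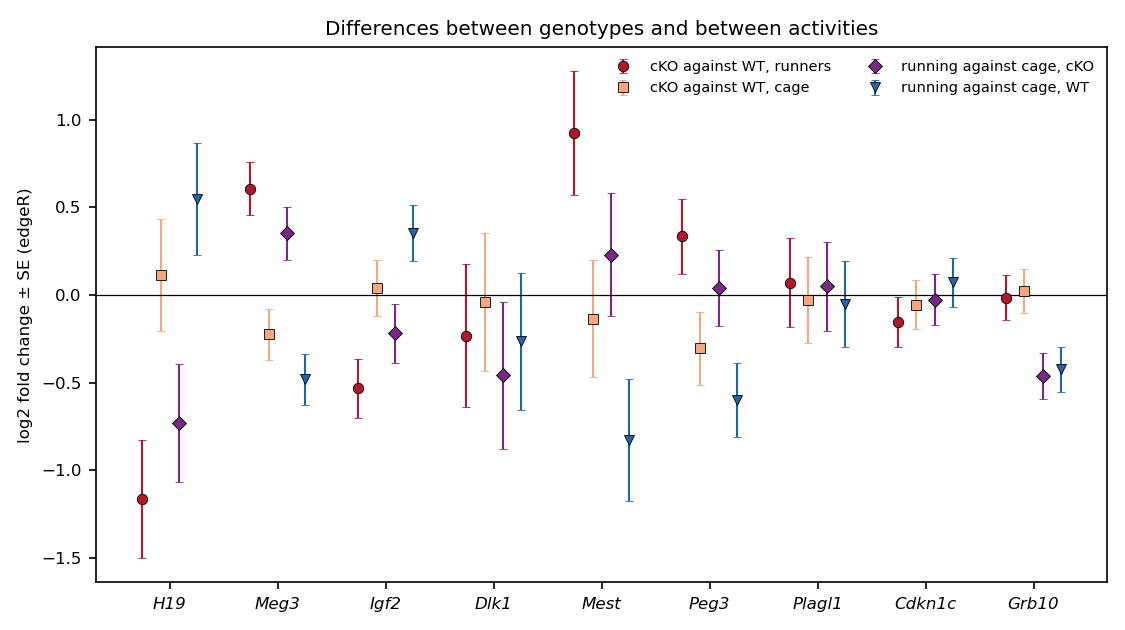
Log2 fold change with its SE (edgeR, 25 libraries, 4 group means and sex) of the 9 members in 4 comparisons, each point 1 member. H19 and Igf2 lie below 0 and Meg3, Mest and Peg3 above 0 for cKO against WT in runners, all 9 lie within 0.31 of 0 at cage activity, and Grb10 lies below 0 in both comparisons of running.

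Sex was not among the 4 groups by which the members were defined, and it was tested. No member was called between males and females (0 of 9, against 0.579% of genes; 3 of 9 at an unadjusted p under 0.05, against 1916 of 19155 genes). The CPM of males and females overlapped for every member, against 0.0679% of genes without overlap. Grb10 came closest, with 48.7 to 109 CPM in 12 males (median 82.7) and 74.7 to 123 CPM in 13 females (median 94.6). Its log2 fold change was -0.26 ± 0.09, with an adjusted p of 0.276 in edgeR's quasi-likelihood test, and limma-voom called it at an adjusted p of 0.0454. Mest was 0.58 ± 0.25 (adjusted p = 0.414), with 5.91 to 22.4 CPM in males and 2.23 to 19.03 CPM in females. Igf2 was -0.28 ± 0.12 (adjusted p = 0.398), and Meg3 was 0.21 ± 0.10 (adjusted p = 0.504). H19 was -0.34 ± 0.23 (adjusted p = 0.687), and -0.22 without cKO running male 2. With the muscle covariate H19 was -0.57 and Grb10 -0.30, with adjusted p of 0.0361 and 0.0140 in edgeR, so both were called with that term and neither without it.

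Several members split by sex within a group. Igf2 had 23.3, 25.2 and 24.7 CPM in cKO cage males against 39.2, 50.2 and 44.3 CPM in cKO cage females. In WT cage mice it had 29.6, 30.1 and 31.3 CPM in males against 39.7, 33.1, 26.9 and 42.6 CPM in females. The males and females of the cKO cage group did not overlap, whereas those of the WT cage group did. This case was picked from 9 members in 4 groups. The share of all genes split by sex within a group was not computed, so nothing is read from the split. The sex-by-genotype term for Igf2, the male against female difference in cKO less that in WT over both activities, was -0.60 ± 0.18, with an adjusted p of 0.9998. That term called 0 of 9 members and 0% of genes, and 1 of 9 members passed at an unadjusted p under 0.05, against 4.09% of genes.

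The sex-by-running term, the male against female difference in runners less that at cage activity, was 0.94 ± 0.24 for Peg3, 1.08 ± 0.46 for Mest, 1.08 ± 0.49 for Dlk1, 0.90 ± 0.30 for Plagl1 and 0.53 ± 0.18 for Igf2. For H19 it was -0.89 ± 0.44. No member was called (0 of 9, against 0% of genes), with adjusted p between 0.378 and 0.452 for the 9 members, and 5 of 9 passed at an unadjusted p under 0.05, against 12.0% of genes. DESeq2 and limma-voom called none of the 9 either. Peg3 illustrates it, with 190, 231 and 117 CPM in male against 119, 142 and 97.0 CPM in female cKO runners, and 133, 132 and 128 CPM in male against 265, 264, 179 and 172 CPM in female WT cage mice. All 3 WT cage males lay below all 4 WT cage females, a split whose share over all genes was not computed. In the sex-by-running term 19 of 20 muscle fibre genes were lower and 1 higher (median log2 fold change -0.61), with 0 called. All 6 adipocyte genes were higher (median 1.19), also with 0 called, and the median of all genes was 0.06. Whether these shifts account for the terms of the members was not tested.

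The members were then compared with each other over the 25 libraries, as Pearson r of log2 CPM for 36 pairs. Since differences between the 4 groups may have chosen the members, r over all libraries is given as a description. The test was made on the residuals after group and sex, with libraries permuted within the 4 groups only and p-values adjusted over the 36 pairs, a choice made after seeing the data. Of the 36 pairs, 10 passed, 5 with a positive and 5 with a negative residual r, and 6 of these also passed by Spearman's rho. Without cKO running male 2, 7 passed, and without cKO cage male 2, 6. The share of passing pairs among all tested genes was not computed, here or for the marker lists and neighbours below. The counts are therefore not read as particular to the members. H19, Grb10 and Plagl1 also moved with the muscle fibre genes (residual r = 0.85, 0.75 and -0.82), and the pairs were not tested apart from these.

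The relations of H19 with the other members did not sort fully by parental copy. Residual r was 0.02 with Igf2, which is paternally expressed, and -0.04 with Cdkn1c, which is maternally expressed. H19 was negatively related to 4 members that are paternally expressed. In the residuals r was -0.69 with Plagl1 (adjusted p = 0.0102), -0.67 with Peg3 (adjusted p = 0.00744), -0.57 with Dlk1 (adjusted p = 0.00918) and -0.55 with Mest (adjusted p = 0.0297), against -0.47, -0.51, -0.39 and -0.64 over all libraries. All 4 had a negative r within each of the 4 groups. Residual rho was -0.64, -0.63, -0.58 and -0.52, and by rho the pair with Mest did not pass. H19 and Meg3 had r = -0.71 over all libraries, which was -0.32 without the 2 libraries farthest from the median, and residual r = -0.56 (adjusted p = 0.0570), which was -0.28 without cKO running male 2. Within groups H19 and Meg3 were negatively related in 3 and had r = 0.50 in WT cage mice. H19 and Grb10, both maternally expressed, had r = 0.55 over all libraries and 0.70 in the residuals (adjusted p = 0.00072; rho = 0.64).

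Among the other pairs, Igf2 and Cdkn1c had r = 0.61 over all libraries, 0.42, 0.57, 0.66 and 0.80 within cKO running, WT running, cKO cage and WT cage, and 0.66 in the residuals (adjusted p = 0.00918; rho = 0.68). Peg3 and Mest had r = 0.64 over all libraries and 0.77 in the residuals (adjusted p = 0.00198; rho = 0.75), with 0.96 in cKO runners, 0.72 in WT runners, and 0.24 in each cage group. Meg3 and Peg3 had r = 0.52 over all libraries and 0.53 in the residuals (adjusted p = 0.0413; rho = 0.44), and 0.36 in the residuals without cKO running male 2. Dlk1 and Mest had a residual r of 0.53 (adjusted p = 0.0353; rho = 0.50), and Plagl1 and Grb10 one of -0.61 (adjusted p = 0.00918; rho = -0.47) against -0.25 over all libraries. Meg3 and Mest had r = 0.56 over all libraries, but 0.18 without the 2 farthest and 0.30 in the residuals (adjusted p = 0.293), with -0.07 in cKO cage and -0.14 in WT cage mice. For the neighbours H19 and Igf2, r was 0.38 over all libraries and 0.02 in the residuals, and for Dlk1 and Meg3 0.29 and 0.39, with adjusted p of 0.911 and 0.156.

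**Figure D3:**
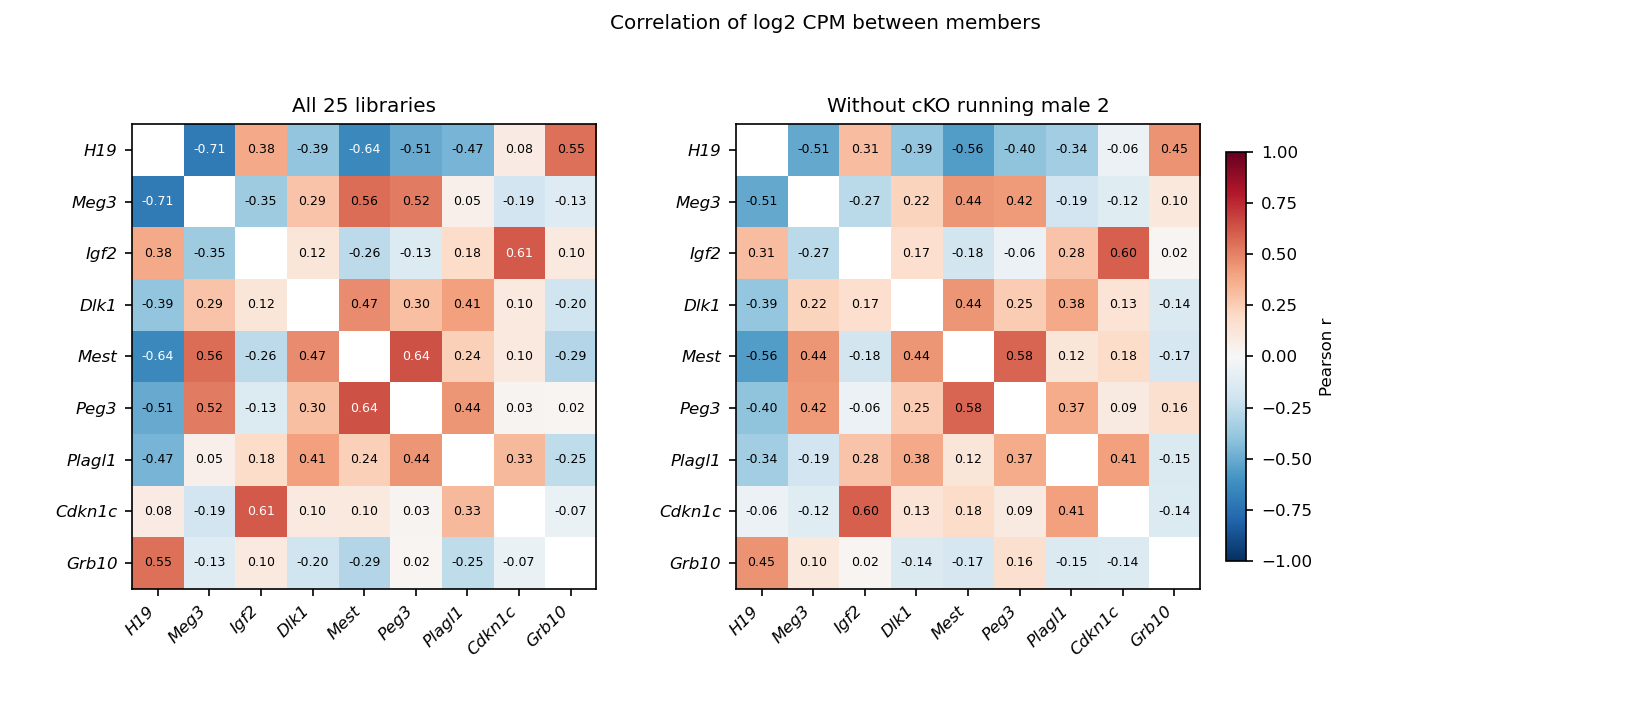
Pearson r of log2 CPM for the 36 pairs of members over all 25 libraries and over the 24 left without cKO running male 2, coloured from -1 (blue) to 1 (red). H19 with Meg3 has r = -0.71 over all libraries and -0.51 without that one, and Igf2 with Cdkn1c has 0.61 and 0.60.

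Marker genes of cell types that a dissected tendon can hold moved with several members. Each member was set against 12 marker lists, 108 relations in all, chosen after member values had been seen, and tested in the same way on the residuals. Of these, 15 passed, 6 of them also by rho, and 8 passed without cKO running male 2. H19 was higher with the satellite cell and myoblast list (r = 0.85 over all libraries; residual r = 0.86, rho = 0.76, adjusted p = 0.000864) and with the muscle fibre list (r = 0.75; residual r = 0.85, rho = 0.72, adjusted p = 0.00054). The muscle fibre relation was 0.85, 0.77, 0.71 and 0.84 within cKO running, WT running, cKO cage and WT cage, and over all libraries it was 0.59 without the 2 farthest. H19 with the adipocyte list had a residual r of -0.64 (adjusted p = 0.0155), which missed the threshold by rho (-0.52, adjusted p = 0.0818), and r over all libraries was -0.59, or -0.29 without the 2 farthest.

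Grb10 likewise was higher with the satellite cell list (residual r = 0.85, rho = 0.89, adjusted p = 0.00054), where r within cKO cage mice was 0.14. With the muscle fibre list it had a residual r of 0.75 (adjusted p = 0.00339) and a rho of 0.57 that missed the threshold (adjusted p = 0.0706), and within cKO cage mice r was -0.20. Plagl1 ran the other way, lower where the muscle fibre list (residual r = -0.82, rho = -0.71, adjusted p = 0.00054) was higher and higher with the adipocyte list (residual r = 0.82, rho = 0.80, adjusted p = 0.00054). Its relations with the satellite cell list (residual r = -0.77, adjusted p = 0.00108), the Schwann cell list (0.66, adjusted p = 0.0155) and the mast cell list (0.64, adjusted p = 0.0155) each missed the threshold by rho, at an adjusted p of 0.0711. The remaining 5 relations that passed were Grb10 with the mast cell (-0.62) and adipocyte (-0.58) lists, Dlk1 with muscle fibres (-0.57), Peg3 with satellite cells (-0.61) and Mest with adipocytes (0.60), of which the first also passed by rho. The satellite cell list had 13 genes, 11 of them tested, and took 0.171% ± 0.0688 of counts in cKO runners, 0.258% ± 0.0354 in WT runners, 0.179% ± 0.0374 in cKO cage mice and 0.175% ± 0.0581 in WT cage mice (SD). The adipocyte list of 6 genes took 0.0393% to 0.326% of counts. Whether these cells set the levels of the members was not tested.

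**Figure D4:**
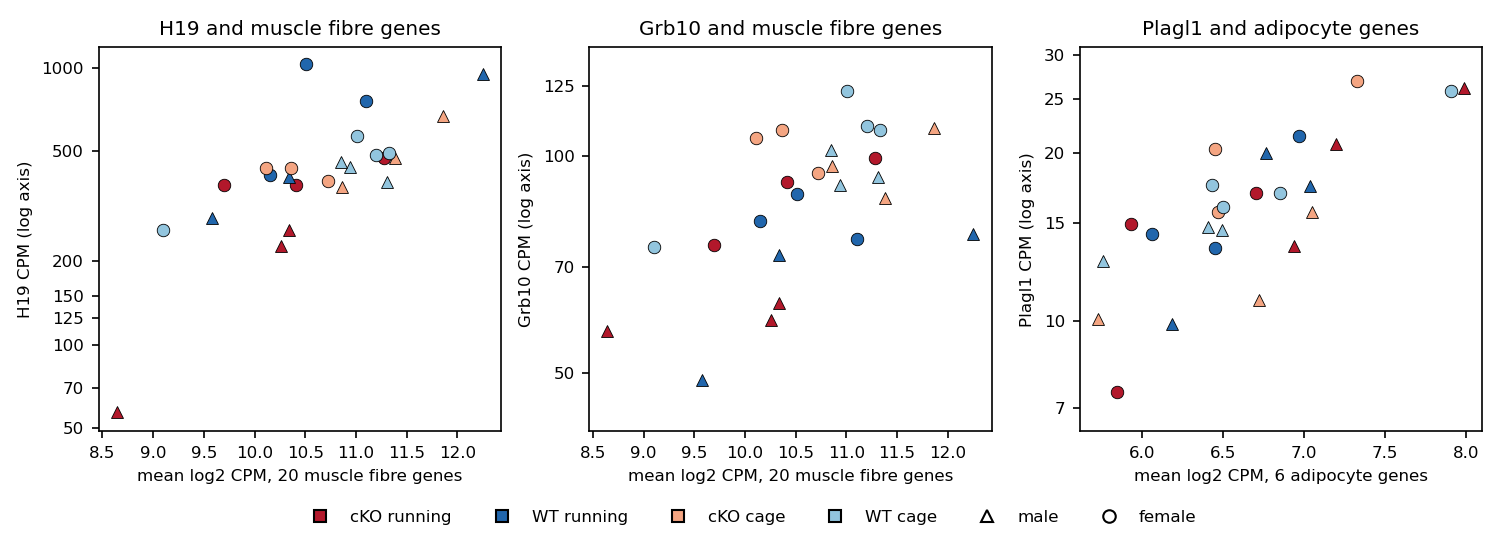
CPM on a log axis of H19, Grb10 and Plagl1 in the 25 libraries against the mean log2 CPM of the 20 muscle fibre or 6 adipocyte marker genes, with males as triangles and females as circles. H19 (r = 0.75) and Grb10 (r = 0.57) are higher in libraries with more muscle fibre transcripts, and Plagl1 (r = 0.78) in those with more adipocyte transcripts; cKO running male 2 is the lowest H19 point at 57.2 CPM.

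The genes most like H19 over the 25 libraries, of 11672 with a mean log2 CPM of at least 1, were Neu2 (a sialidase), Cox5a (a cytochrome c oxidase subunit), Glo1 (glyoxalase I), Psmd6 (a proteasome lid subunit) and Capn3 (the muscle calpain), each with r = 0.89. H19 had r over 0.7 with 909 of these genes and under -0.7 with 281, so such values were common. Capn3 also had the highest rho of the 5, at 0.88.

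Imprinted neighbours within 1 Mb of the members gave 28 relations, listed after member values had been seen and tested in the same way, of which 5 passed, and 2 without cKO running female 3. Peg3 with Zim1, a zinc finger gene 7442 bases away, had r = 0.84 over all libraries, between 0.76 and 0.90 within the 4 groups, and 0.83 in the residuals (rho = 0.78, adjusted p = 0.00056). Meg3 with the retrotransposon-derived gene Rtl1, 17467 bases away, had r = 0.77 over all libraries and 0.75 in the residuals (rho = 0.75, adjusted p = 0.00084). Genes that overlap Rtl1 or the other neighbours were not looked up. With the strand setting not stated, reads from either strand may be counted for them. Dlk1 with Dio3, the thyroid hormone deiodinase gene, had r = 0.59 over all libraries and 0.56 in the residuals (rho = 0.56, adjusted p = 0.0211). The potassium channel gene Kcnq1 had a residual r of 0.53 with Igf2 (rho = 0.58, adjusted p = 0.0129) and -0.53 with H19 (rho = -0.51, adjusted p = 0.0477), and by rho the relation with H19 did not pass. Meg3 with the non-coding RNA gene Rian had r = 0.55 over all libraries and 0.45 in the residuals (adjusted p = 0.107). Rtl1, like Meg3, had a positive log2 fold change between cKO and WT runners, at 0.53 ± 0.28, and Rian was 0.28 ± 0.20, neither called (adjusted p = 0.464 and 0.574 in edgeR).

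Other imprinted genes were read against all tested genes, of which 0% were called between cKO and WT runners and 1.31% for the running mean. Of 24 other paternally expressed genes, 21 were tested, and in runners 10 were higher and 11 lower in cKO than in WT, with 0 called and a median log2 fold change of -0.04 against 0.01 for all tested genes. Of 24 other maternally expressed genes, 19 were tested, with 12 higher, 7 lower and 0 called in that comparison and a median of 0.18. For running against cage as the mean of both genotypes, the paternally expressed list had 0 called and a median of -0.05. The maternally expressed list had 1 called, Ube3a (an E3 ubiquitin ligase imprinted mainly in neurons), at -0.34 ± 0.09 with an adjusted p of 0.0497, close to the threshold, and a median of 0.05 against 0.01 for all genes.

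Genes of the pathways on which Igf2, Grb10 and Cdkn1c act were read against the same shares, 0% of all genes in runners, 1.31% for the running mean and 0.579% between males and females. Of 15 genes of IGF and insulin signalling, 14 were tested. Between cKO and WT runners 8 were higher, 6 lower and 0 called, with a median log2 fold change of 0.03 against 0.01 for all genes, and the smallest p belonged to Irs1 (insulin receptor substrate 1) at -0.20 ± 0.10 (adjusted p = 0.441). For running against cage over both genotypes 5 were higher, 9 lower and 0 called, with a median of -0.06. Between males and females, Igf1r, the receptor through which IGF2 and IGF1 signal, was called lower in males at -0.31 ± 0.06 (adjusted p = 0.0134). Of 6 other Cip/Kip and INK4 cell cycle inhibitors, 5 were tested and 0 were called between cKO and WT runners, with 4 higher and 1 lower. The smallest p among them was that of Cdkn2b at 1.05 ± 0.43 (adjusted p = 0.409).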

How the data were processed

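The libraries came from total RNA of Achilles tendons, per the labels. The deposited expected counts are RSEM gene values and were whole numbers throughout, so rounding changed none. The deposited FPKM table covers the same libraries and was used for levels per length and as an alternative. The tools named, per the submitters' processing notes, are RSEM 1.3.3, STAR 2.7.8a, cutadapt 2.3 and FastQC 0.11.8, and the build is GRCm38 (mm10). Strand and annotation release are not stated. The labels do not say that each library came from its own mouse, so p-values measure the spread between these libraries, which may be technical.

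Counts were tested in R 4.3.3 with edgeR 4.0.16 (TMM scaling, filterByExpr on the 4 groups, robust quasi-likelihood F-tests, 4 group means plus sex; 8 means for terms with sex). P-values are two-sided and Benjamini-Hochberg adjusted over 19155 genes, with calls under 0.05. CPM are TMM-scaled. Correlations used log2 CPM with a pseudo-count of 2 and two-sided permutation p-values from 100000 resamples of the residuals after group and sex within the 4 groups; the test first planned permuted all 25 libraries. Entries for 4 reporter sequences were not tested. In counts simulated gene by gene, edgeR recovered known changes between cKO and WT runners, for the running mean and between males and females. The interaction terms and the correlation tests were not simulated.

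Members, lists and tests were chosen with earlier results of these data known. Every member is named in every comparison; of the other lists, called genes or those with the smallest p; and the 5 genes most correlated with H19. Alternatives used DESeq2 1.42.0 and limma 3.58.1, other filters and scaling, covariates for muscle, column prefix and eGFP, a replicate block and subsets of libraries. Total counts per library limit the precision of low genes such as Dlk1, and a count of 0 allows up to 3 counts.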

Additional observations from a re-analysis of the deposited data

Results flagged for a closer look

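Of 36 sets of a member's values in a group, 3 held a library far from the rest of its group by Dixon's ratio of the gap to the range, where chance gives about 1 in 20. H19 was 668 CPM in cKO cage male 2, against 370.1 to 474 CPM in the other 5 libraries of that group. Meg3 was 44.3 CPM in cKO running male 2, against 20.1 to 28.9 CPM in the others. That library also had the lowest share of muscle fibre transcripts, 3.69% of its counts. Plagl1 was 25.8 CPM in WT cage female 1, against 12.8 to 17.5 CPM in the others, and muscle fibre genes took 3.79% of that library's counts. WT running male 2 held 2731 eGFP counts, against 0 to 1 in the other 12 WT libraries, in an entry that was not tested as a gene, though 1 alternative fit took the libraries carrying eGFP as a term.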

How the results depend on the processing

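Each comparison was refitted under 16 alternatives (14 for those of sex) and with each of the 25 libraries left out, and 1 more alternative, edgeR without robust estimation, was chosen after seeing the data and changed no call of a member. Running against cage as the mean of both genotypes called Grb10, and 0 members in limma on log2(FPKM + 1), on log2(FPKM + 0.1) and on log2(FPKM + 1) with no filter, and with the eGFP term. DESeq2 called 1 member, Grb10, for running in cKO mice. Limma-voom called Grb10, 1 member, for running in WT mice, for running in cKO mice and between males and females. The muscle covariate called 1 member (Grb10) for running in WT mice and 2 (H19 and Grb10) between males and females. With no filter on low counts, 4 members (H19, Peg3, Plagl1 and Mest) passed the sex-by-running term, where 887 of 42619 genes were called against 0 of 19155 with the filter. The cause was not tested. Over all genes, the count called for the running mean was 250, and 273 without robust estimation, 637 in DESeq2, 906 in limma-voom and 11 with the eGFP term. That term overlaps in part with running in cKO mice and with genotype among runners.

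The male against female difference of Cdkn1c changed sign, to 0.0169 without the 2 libraries of the other column prefix, which are too few for a value of their own. The difference was 0.0111 without cKO cage female 3, the library labelled cKO with no Cre count. It ranged from -0.0752 to 0.0182 as each library was left out. The count of correlated pairs was 8 with libraries permuted over all 25, 14 in the residuals so permuted, and from 0 (without cKO running male 2) to 11 as each library was left out. The test within groups used in the text, added after seeing the data, gave 10 pairs (6 to 15 as each library was left out), 15 relations with marker lists (8 to 19) and 5 with imprinted neighbours (2 to 6).

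Same-numbered libraries of different groups did not deviate together (34 pairs, r from -0.20 to 0.21, median -0.01). Libraries of other numbers gave a like spread (83 pairs, r from -0.22 to 0.24, median 0.01). Deviations from means of so few libraries cannot exclude a pairing, and the main fit had no term for one. With the replicate block, 1 member, Grb10, was called for the running mean at -0.46 and 0 members in the comparisons of genotype and in the genotype-by-running term, as without it.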
